A study of Mus musculus with 22 samples.

Results

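The genes described here encode the receptor for granulocyte-macrophage colony-stimulating factor (GM-CSF) and the proteins with which macrophages sense cholesterol and move it out of the cell. They were chosen by name and role, as genes that surfactant clearance in the lung relies on, with earlier results of these data known: Csf2ra, Csf2rb, Csf2rb2, Nr1h2, Nr1h3, Abca1, Abcg1, Mylip, Apoe and Apoc1. All 10 were found among the 31116 genes counted for both cell types studied, and all 10 passed the filter on low counts in every fit.

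RNA was sequenced from 22 samples of lung cells of C57BL/6 mice with the genotype SP-CI73T mutant. In these mice a mutant form of surfactant protein C, the product of Sftpc in alveolar type 2 cells, rises in level once tamoxifen has activated a Flp-O recombinase placed at the Rosa26 locus, which removes a neomycin cassette from the mutant allele. The study used this model to follow acute inflammation of the lung that starts in the epithelium. After lavage, lungs were digested with collagenase and sorted by flow cytometry into alveolar macrophages, labelled SigF+CD11b-, and Ly6Chi monocytes. By the methods of the study, alveolar macrophages, eosinophils, neutrophils and lymphocytes were gated out before monocytes were collected.

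Control macrophages (4 samples) and control monocytes (4 samples) came from mice of the mutant genotype labelled as untreated. The methods of the study also count tamoxifen treated mice without Flp-O as controls, and its results call the controls oil treated, so the exact control treatment of each sample is not known here. Macrophages at 3 d (3 samples) and at 14 d (3 samples), and monocytes at 3 d (4 samples) and at 14 d (4 samples), came from adult mutant mice that had received tamoxifen by oral gavage. Whether a sample is a mouse or a pool of mice is not given, and p-values therefore measure the spread between these samples.

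GM-CSF binds the α chain of its receptor, the product of Csf2ra, and signals through a β chain, the product of Csf2rb, which is shared with the receptors for IL-3 and IL-5. Mice hold a further β chain gene, Csf2rb2, whose product serves the IL-3 receptor. In the lung, GM-CSF signaling through STAT5 and the transcription factors PU.1 (Spi1) and PPARγ (Pparg) is known to bring alveolar macrophages to maturity, and without it surfactant lipids pile up in them. Oxysterols made from excess cholesterol activate the nuclear receptors LXRα (Nr1h3) and LXRβ (Nr1h2). These raise the transporters ABCA1 and ABCG1, the ligase MYLIP, which sends lipoprotein receptors to degradation, and the cholesterol acceptors apolipoprotein E and C-I.

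Library totals were 4610720 to 17074863 counts in the 10 macrophage samples and 15451460 to 28789639 counts in the 12 monocyte samples. The 3 libraries of 14 d macrophages were the shallowest, with 5618291, 6838893 and 4610720 counts, and yet had 27699 to 30627 genes with a count, against 21951 to 27616 in control macrophages. The 4 libraries of 3 d monocytes had 40119 to 41134 genes with a count, against 24775 to 30865 in control monocytes. Counts on non-coding genes made up 6.56% to 9.10% of these 3 d monocyte libraries and 5.95% to 7.59% of the 14 d macrophage libraries, against at most 5.33% in every other library. Mitochondrial counts made up 1.76% to 2.05% of control macrophage libraries, 2.67% to 3.30% at 3 d and 2.33% to 3.95% at 14 d. In monocytes this share was 0.969% to 1.41% in controls, 2.10% to 3.62% at 3 d and 1.23% to 1.79% at 14 d. Levels are given as CPM (counts divided by the scaled library total in units of 1e+06) after TMM scaling, which sets libraries on a common scale through the genes they share. CPM was scaled within each cell type beside changes over time, and over the 22 samples together (called joint CPM) beside comparisons of the cell types. The counts of the cell types were deposited separately. In direct comparisons of macrophages with monocytes, a difference in processing thus cannot be told apart from a difference between the cell types.

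A gene was called changed at a Benjamini-Hochberg adjusted p under 0.05 and a fold change above 1.5 in edgeR's quasi-likelihood test. The scale matters for these genes. In 14 d against control macrophages the median log2 fold change was 0.18 over all genes tested and -0.56 over the 5363 genes with a mean log2 CPM above 5. With scaling by library size these medians were 0.61 and -0.12. Of the genes called in this comparison 63.3% were higher, against 84.5% with library size scaling, 80.8% with upper quartile scaling, and 89.0% with TMM factors from well-expressed genes. In 3 d against control monocytes the medians were 0.22 over all genes and -0.55 over 4232 well-expressed genes, and 71.8% of called genes were higher, against 95.1%, 93.2% and 95.7% under the same scalings. For the 10 genes, modest decreases in 14 d macrophages and 3 d monocytes are therefore given beside the median of well-expressed genes, and calls that an alternative ended are named. Library size scaling, upper quartile scaling, TMM factors from well-expressed genes and a higher filter on counts are called the 4 rescalings below. Further genes are given on the TMM scale alone.

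The share of higher genes among all called genes also moved with library size scaling in other comparisons. It went from 37.6% to 48.6% in 14 d against control monocytes, from 25.8% to 5.77% in 14 d against 3 d monocytes and from 64.5% to 87.5% in 14 d against 3 d macrophages. Between the cell types it went from 55.5% to 71.2% in controls, but to 43.8% with upper quartile scaling, and from 63.4% to 87.6% at 14 d. At 3 d it went from 32.3% to 51.1% when only genes averaging over 1 on the log2 CPM scale were kept, but to 23.4% with upper quartile scaling. For the differences in change between the cell types it went from 18.7% to 7.19% at 3 d and from 45.9% to 81.5% at 14 d. With the higher filter on counts the 3 d share was 30.7%.

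The labels of the cells were set against their markers. Control macrophages held the alveolar macrophage markers, with summed levels of 32125, 30773, 33249 and 28701 CPM led by Chil3, and the 7 monocyte markers together reached only 58.0, 47.0, 57.0 and 30.9 CPM. Monocyte markers summed to 13902, 12073, 9030 and 9477 CPM in control monocytes. At 14 d, 6 of the 8 alveolar macrophage markers had fallen in macrophages, among them Siglecf from a mean of 304 to 112 CPM, while Itgam, which encodes the CD11b of the sorting gate, had risen from 1.76 to 76.3 CPM. The 7 monocyte markers summed to 295, 155 and 159 CPM in 14 d macrophages, and 4 of them had risen. In this comparison 22.9% of all genes were lower and 39.4% higher, and well-expressed genes had a median of -0.56. At 3 d macrophage replicates 1, 2 and 3 had 30824, 27015 and 56239 CPM of alveolar macrophage markers, 133, 90.8 and 236 CPM of monocyte markers, 105, 12.9 and 78.3 CPM of eosinophil markers and 226, 134 and 385 CPM of lymphocyte and NK cell markers. They had 21.6, 14.7 and 13.6 CPM of interstitial macrophage markers, 110, 62.4 and 52.3 CPM of neutrophil markers, 11.8, 21.2 and 19.8 CPM of dendritic cell markers and 252, 356 and 239 CPM of alveolar type 2 cell markers. Replicate 2 was thus the lowest in 4 of these 8 lists and the highest in 2, the last ones named.

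Markers of other cells rose in 14 d macrophages as well. The 7 interstitial macrophage markers summed to 470, 213 and 473 CPM at 14 d, led by C1qb, against 3.70, 6.77, 12.5 and 4.18 CPM in controls. The 9 neutrophil markers summed to 1390, 1664 and 411 CPM, led by S100a9, against 60.9, 37.3, 56.8 and 50.7 CPM, and the 4 eosinophil markers to 124, 44.7 and 133 CPM, led by Prg2, against 11.1, 10.4, 7.73 and 9.76 CPM. No marker of these 3 lists was at 0 in all 14 d macrophage libraries. Alveolar type 2 cell markers, led by Napsa in monocytes, summed to 190 to 375 CPM in macrophages and 903 to 1629 CPM in monocytes. Napsa alone made up most of the monocyte sums, with means of 1271 CPM in controls, 927 CPM at 3 d and 960 CPM at 14 d. The higher sums in monocytes thus do not speak for the list. In monocytes, the 7 lymphocyte and NK cell markers, led by Nkg7, summed to 152, 254, 642 and 527 CPM in controls but 20.4, 112, 33.3 and 33.6 CPM at 3 d and 30.6, 28.5, 15.3 and 31.2 CPM at 14 d. The 4 dendritic cell markers summed to 368, 358, 223 and 232 CPM in control monocytes, led by Cd209a, and to 24.1, 49.5, 56.0 and 180 CPM at 3 d. Neutrophil markers summed to 573, 518, 478 and 445 CPM in control monocytes, 1198, 642, 894 and 300 CPM at 3 d and 1144, 928, 497 and 502 CPM at 14 d. Of these 9 markers 3 were higher and 1 lower at 3 d against control, when 36.8% of all genes were higher and 14.4% lower. None was called at 14 d, when 8.56% of all genes were. Interstitial macrophage markers summed to 1239, 801, 679 and 657 CPM in control monocytes, led by Cx3cr1, to 209, 215, 349 and 431 CPM at 3 d, and to 868, 1300, 1836 and 961 CPM at 14 d, led by C1qb. Of the 7 markers 1 was higher and 2 lower at 3 d against control, and 4 were higher and 2 lower at 14 d, with list medians of 0.68 and 2.85. At 14 d 3.22% of all genes were higher and 5.34% lower. Cx3cr1 carried the lower sum at 3 d, with means of 776 CPM in controls and 192 CPM at 3 d, and C1qb went from 40.0 CPM in controls to 66.1 CPM at 3 d and 581 CPM at 14 d. Alveolar macrophage markers, led by Chil3, summed to 8393 to 15466 CPM in control monocytes, 4421 to 9147 CPM at 3 d and 15898 to 21408 CPM at 14 d. Chil3 made up most of these sums, with means of 10294, 7134 and 18637 CPM. Of the 8 markers 0 were higher and 3 lower at 3 d against control, and 1 was higher and 1 lower at 14 d, with list medians of -1.40 and -0.55. The shares of all genes on these days are those just given. The part these cells or the RNA quality had in the changes described here was not tested, and a different mix of cells cannot be told apart from a change within a cell in such bulk samples.

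Counts of Xist were 2744 to 4444 in control macrophages and 960 to 4260 in control monocytes, but 8 to 32 and 1 to 6 in the 14 d samples. The Y-linked genes Ddx3y, Uty, Eif2s3y and Kdm5d together had at most 3 counts in any control or 3 d library, and 433 to 966 in 14 d macrophages and 1949 to 3033 in 14 d monocytes. Time and sex thus cannot be told apart in any comparison of 14 d samples with control or 3 d samples.

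Over the 10 genes, the number called and its direction depended on the cell type and the day. In monocytes at 3 d against control, 6 of 10 were called, when 51.2% of 22353 genes tested were. None of these was higher, against 36.8% of all genes, and 6 were lower, against 14.4% of all genes. At 14 d against control, 2 of 10 were called in monocytes, both higher, when 8.56% of all genes were called, 3.22% higher and 5.34% lower. From 3 d to 14 d, 6 of 10 were called, all higher, when 46.5% of all genes were called, 12% higher and 34.5% lower. The direction of the 10 genes in monocytes at 3 d and from 3 d to 14 d was thus the less common direction among all genes, on a scale on which well-expressed genes had a negative median at 3 d.

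In macrophages at 3 d, edgeR called 0 of 10, when 1.27% of 20944 genes tested were called, 1.05% higher and 0.224% lower. At an unadjusted p under 0.05 the count was 2 (Abcg1 and Apoe), and DESeq2 called 1 (Apoe). Without macrophage 3 d replicate 2 edgeR called 3 genes, Abca1, Abcg1 and Mylip, all lower, and 1476 genes of all, against 267 with it. At 14 d against control, 6 of 10 were called in macrophages, near the 62.3% of all genes called. Of these, 2 were higher, when 39.4% of all genes were, and 4 were lower, when 22.9% were. From 3 d to 14 d, 7 of 10 were called, 2 higher and 5 lower, when 56.4% of all genes were called, 36.3% higher and 20.0% lower. The median log2 fold change of the 10 genes was -0.64 at 14 d against control in macrophages and 0.25 in monocytes, against 0.18 and 0.09 over all genes tested and -0.56 and -0.08 over well-expressed genes.

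**Figure D1:**
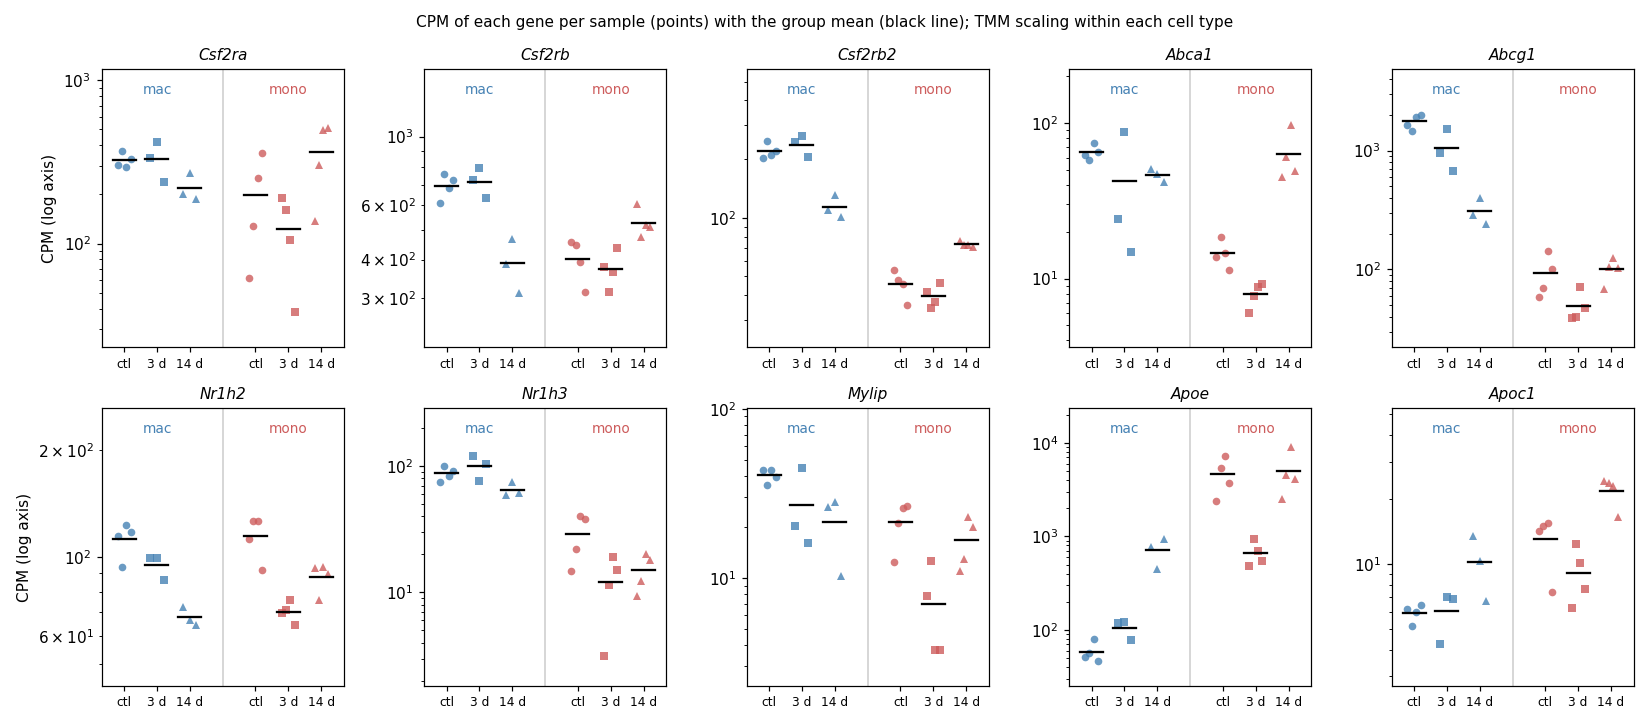
CPM on a log axis (vertical) of each of the 10 genes in the 6 groups (horizontal: control, 3 d and 14 d, macrophages in blue and monocytes in red), TMM scaled within each cell type; each point is a sample and the black line is the group mean. Abcg1 in macrophages sits at 1456 to 1984 CPM in controls and at 241 to 396 CPM at 14 d, Apoe moves the other way in the same cells, and Csf2ra in monocytes spreads widely within each group.

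Csf2ra, the GM-CSF binding chain, is on chromosome 19. In macrophages its level was 301, 371, 293 and 331 CPM in controls, 336, 419 and 240 CPM at 3 d and 201, 271 and 187 CPM at 14 d. All 14 d samples lay below all control samples, while 1 of them lay within the range of the 3 d samples. The log2 fold change at 14 d against control was -0.56 (SE 0.19, adjusted p = 0.0138), under the fold change needed for a call and equal to the median of well-expressed genes. Under the alternatives it lay between -0.77 and -0.02, and it passed without a filter on low counts, by adjusted p alone, or without control replicate 1, 3 or 4 or 14 d replicate 2. From 3 d to 14 d it was -0.59 (SE 0.20, adjusted p = 0.0161), a call lost under the 4 rescalings, with DESeq2, with the replicate block, with only the groups compared and without 14 d replicate 1 or 3.

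In monocytes Csf2ra varied more within groups than between them. Controls had 61.6, 128, 251 and 358 CPM, 3 d samples 190, 160, 106 and 38.0 CPM and 14 d samples 137, 304, 494 and 514 CPM. Levels within a group thus spanned 5.81-fold in controls, 5.00-fold at 3 d and 3.76-fold at 14 d, and every pair of groups overlapped. Every 14 d sample was above the control sample of the same number, a pairing that the labels do not state. With the replicate block the change at 14 d against control was still not called. The log2 fold change was -0.69 (SE 0.60, adjusted p = 0.344) at 3 d and 0.86 (SE 0.60, adjusted p = 0.450) at 14 d against control, and neither passed. Between 3 d and 14 d it was 1.55 (SE 0.61, adjusted p = 0.0517), just short of the threshold, while it was called with DESeq2, with a dispersion that was not robust, with only the groups compared and without monocyte 14 d replicate 1.

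Csf2rb, the signaling β chain, is on chromosome 15 on the plus strand, and Csf2rb2 lies beside it on the minus strand. The paralogs are so alike in sequence that reads could be split between them. Csf2rb had 609, 757, 680 and 725 CPM in control macrophages, 723, 789 and 633 CPM at 3 d and 387, 466 and 313 CPM at 14 d. The 14 d samples lay below all others, at 389 ± 76.9 CPM (SD, n = 3) against 693 ± 64.2 CPM (SD, n = 4) in controls. Csf2rb fell by 0.83 on the log2 scale at 14 d against control (SE 0.16, adjusted p = 0.000317), which was 0.27 below the median of well-expressed genes, and the call was lost under the 4 rescalings. The fall from 3 d, by 0.88 (SE 0.17, adjusted p = 0.000569), was lost under the 4 rescalings as well.

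Csf2rb2 followed it in macrophages. Its level was 202, 247, 210 and 221 CPM in controls, 245, 262 and 205 CPM at 3 d and 110, 131 and 101 CPM at 14 d, with no overlap between the last group and the others. It fell by 0.95 on the log2 scale against control (SE 0.14, adjusted p = 5.68e-05) and by 1.06 from 3 d (SE 0.15, adjusted p = 9.39e-05). The drop against control was 0.39 below the median of well-expressed genes and lost its call under the rescalings other than upper quartile, and that from 3 d lost it with TMM factors from well-expressed genes. Under all alternatives the change against control stayed negative, at -1.16 to -0.40 for Csf2rb2 and -1.04 to -0.29 for Csf2rb.

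In monocytes the β chains were steadier than the α chain. Csf2rb had 455, 446, 394 and 314 CPM in controls, 380, 315, 365 and 437 CPM at 3 d and 606, 473, 518 and 511 CPM at 14 d. Every 14 d sample was above every control sample, but the log2 fold change of 0.39 (SE 0.15, adjusted p = 0.127) did not pass. Csf2rb2 had 53.9, 47.9, 45.4 and 35.7 CPM in controls, 41.5, 34.4, 37.0 and 46.3 CPM at 3 d and 76.3, 72.4, 72.2 and 70.8 CPM at 14 d. It rose 1.59-fold at 14 d, by 0.67 on the log2 scale (SE 0.15, adjusted p = 0.0109), with no overlap between the groups. This call ended when genes were kept whatever their counts, with upper quartile scaling, or without monocyte control replicate 4. Between 3 d and 14 d Csf2rb2 rose by 0.87 (SE 0.15, adjusted p = 0.00130), a call that the 4 rescalings ended.

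The ratio of counts between the receptor genes within a library does not depend on how libraries are scaled. Csf2rb2 had 0.318 ± 0.0133 counts per count of Csf2rb in control macrophages (SD, n = 4), 0.331 ± 0.00719 at 3 d and 0.296 ± 0.0238 at 14 d (SD, n = 3). In monocytes this ratio was 0.114 ± 0.00473 in controls, 0.106 ± 0.00368 at 3 d and 0.139 ± 0.0110 at 14 d (SD, n = 4). The macrophage and monocyte ranges were far apart, and the 14 d monocytes (0.126 to 0.153) lay above both other monocyte groups. Csf2ra had 0.468 ± 0.0305 counts per count of Csf2rb in control macrophages and 0.566 ± 0.0426 at 14 d, with ranges that did not overlap. No test was run on these ratios.

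Between the cell types, on the joint scale, Csf2rb2 was 1.90 higher on the log2 scale in control macrophages than in control monocytes (SE 0.14, adjusted p = 3.14e-11) and 2.03 higher at 3 d. At 14 d the cell types had 80.9 ± 8.25 joint CPM (SD, n = 3) and 85.0 ± 3.60 joint CPM (SD, n = 4), a log2 difference of -0.07 (adjusted p = 0.691) whose sign turned, to 1.02, with library size scaling. Under the rescalings other than upper quartile Csf2rb2 was called higher in macrophages at 14 d. Per kilobase of exon, Csf2ra and Csf2rb were at like levels in control macrophages, at 113 and 95.2 CPM per kb, and Csf2rb2 at 46.5 CPM per kb.

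The change from control to 14 d differed between the cell types for both β chains. For Csf2rb the macrophage change was 1.57 lower than the monocyte change on the log2 scale (interaction -1.57, SE 0.22, adjusted p = 9.81e-06), and for Csf2rb2 the interaction was -1.97 (SE 0.21, adjusted p = 5.10e-07). Both differences kept their call under all alternatives, at -1.58 to -0.80 for Csf2rb and -1.98 to -1.19 for Csf2rb2. For Csf2ra the interaction of -1.75 (SE 0.75, adjusted p = 0.0751) did not pass, though it did with a dispersion that was not robust and without monocyte control replicate 4 or 14 d replicate 1.

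In all, 6 of the 10 genes passed this test of the difference at 14 d, when 36.8% of 26692 genes tested did. The change was higher in macrophages for 1 of the 10, against 16.9% of all genes, and lower for 5, against 19.9% of all genes. The higher gene was Apoe, and the lower genes were Csf2rb, Csf2rb2, Abca1, Abcg1 and Nr1h2. The difference at 3 d passed for 1 of the 10, Apoe, when 18.7% of all genes passed, 3.51% with a higher change in macrophages and 15.2% with a lower change. The median of well-expressed genes in the 14 d test was -0.85, so that the interaction of Nr1h2, at -0.70, lay above it, and with TMM factors from well-expressed genes its sign turned, to 0.09. This call was lost under the 4 rescalings, with DESeq2, without a filter on low counts and without monocyte 14 d replicate 4.

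The ligand gene Csf2 had 0 counts in every macrophage sample and at most 11 counts in a monocyte sample, Il3 had at most 1 count in any sample and Il5 at most 8. None of these 3 genes had enough counts to be tested. Of the ligand-binding chains of the sister receptors, Il3ra had 20.7 to 29.8 CPM as group means and was not called in any comparison over time. Il5ra rose in 14 d macrophages from 0.78 to 4.32 CPM (log2 fold change 2.46, adjusted p = 0.000136), where eosinophil markers went from 7.73 to 11.1 CPM in controls to 44.7 to 133 CPM. It also rose in 3 d monocytes, from 0.49 to 1.47 CPM (log2 fold change 1.58, adjusted p = 0.0178), where eosinophil markers summed to at most 3.87 CPM, and fell from there to 0.15 CPM in 14 d monocytes (-3.23, adjusted p = 0.00140). Of all genes 39.4% were higher in 14 d macrophages, 36.8% were higher in 3 d monocytes and 34.5% were lower from 3 d to 14 d in monocytes. The groups in which Il5ra was higher, from levels below 1 CPM, were also those with more genes detected.

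The 12 further genes of GM-CSF signaling moved as follows. In 14 d macrophages 3 were higher and 7 lower against control, when 39.4% of all genes were higher and 22.9% lower. Socs1 and Socs3, which restrain JAK signaling, rose by 2.61 and 2.00 on the log2 scale. The transcription factors Bhlhe41 and Pparg fell by 1.22 and 1.20. The median of the list was -0.89, against -0.56 over well-expressed genes. At 3 d only Cish, a target of STAT5, was called in macrophages, at 1.11, when 1.05% of all genes were higher. In 3 d monocytes 3 were higher (Socs2, Cish and Bhlhe41) and 3 lower, with Pparg at -2.15, when 36.8% of all genes were higher and 14.4% lower. The list median there was -0.27, against -0.55 over well-expressed genes. In 14 d monocytes 3 rose and 0 fell, when 3.22% of all genes were higher and 5.34% lower, namely Socs2 by 3.85, Socs3 by 1.89 and Jak2, the kinase bound to the β chain, by 1.28.

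Nr1h2, which encodes LXRβ, had 114, 93.9, 123 and 118 CPM in control macrophages, 99.2, 99.6 and 86.1 CPM at 3 d and 72.3, 66.7 and 64.4 CPM at 14 d. In monocytes it had 112, 126, 126 and 91.9 CPM in controls, 69.8, 70.9, 75.6 and 64.3 CPM at 3 d and 93.2, 75.9, 93.6 and 89.6 CPM at 14 d. The 14 d macrophages lay below all other macrophages, and the 3 d monocytes below all control monocytes. The log2 fold change was -0.73 in 14 d macrophages (SE 0.13, adjusted p = 0.000266) and -0.70 in 3 d monocytes (SE 0.14, adjusted p = 0.00157). These lay 0.17 and 0.15 below the medians of well-expressed genes, and both calls were lost with DESeq2 and under the 4 rescalings.

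Nr1h3, which encodes LXRα, was higher in macrophages than in monocytes on each day. Macrophages had 75.2, 100, 82.7 and 91.9 CPM in controls, 119, 75.7 and 104 CPM at 3 d and 59.3, 74.7 and 61.0 CPM at 14 d. Monocytes had 14.9, 21.9, 40.4 and 38.2 CPM in controls, 3.13, 11.5, 19.0 and 15.2 CPM at 3 d and 9.32, 12.2, 20.0 and 18.1 CPM at 14 d. On the joint scale too, macrophage samples were above all monocyte samples within controls, within 3 d and within 14 d. The log2 difference between macrophages and monocytes was 1.23 in controls (SE 0.38, adjusted p = 0.0112), 2.50 at 3 d (SE 0.41, adjusted p = 4.37e-05) and 1.41 at 14 d (SE 0.41, adjusted p = 0.00523), and held its call under all scalings run. A stretch of 34 exonic bases of Nr1h3 is shared with Gm13783 on the same strand.

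Over time Nr1h3 fell in 3 d monocytes by 1.25 on the log2 scale (SE 0.46, adjusted p = 0.0344), with groups that overlapped. The call was lost under the 4 rescalings, with only the groups compared, and when any of 4 samples was left out (control replicates 3 and 4, 3 d replicates 1 and 2), with values of -1.51 to -0.88 over all samples left out in turn. In 14 d monocytes it was -0.95 (SE 0.46, adjusted p = 0.245), called only with the replicate block. In 14 d macrophages it was -0.43 (SE 0.17, adjusted p = 0.0310), short of the fold change needed and between -0.63 and 0.13 under the alternatives, so that its direction is not settled (it passed without a filter on low counts and by adjusted p alone), and from 3 d to 14 d it was -0.61 (SE 0.18, adjusted p = 0.00742), a call lost under the 4 rescalings, with DESeq2 and with only the groups compared.

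Among partners and corepressors of the LXRs, Rxra, the retinoid X receptor that pairs with LXR, fell by 1.37 on the log2 scale in 14 d macrophages, when 22.9% of all genes were lower. Of the 4 genes of this list tested there 2 were lower and 0 higher, and the list median was -0.59, near the -0.56 of well-expressed genes. In monocytes at 3 d 1 of the 5 genes was lower, Ncor1 by 0.74, and 1 was higher, Rxrg by 2.64 from 0.14 to 0.89 CPM. None of the 5 was called at 14 d, when 8.56% of all genes were. At 3 d 14.4% of all genes were lower and 36.8% higher.

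Abcg1, which passes cholesterol to high-density lipoprotein, had the highest level of the 10 genes in control macrophages per length, at 240 CPM per kb, and showed the largest decrease of the 10 there. It had 1655, 1456, 1924 and 1984 CPM in controls, 960, 1521 and 677 CPM at 3 d and 286, 396 and 241 CPM at 14 d. All 14 d samples were below all 3 d samples, and 2 of 3 samples at 3 d were below all controls while replicate 2 lay within them. The mean at 14 d was 308 ± 80.1 CPM (SD, n = 3) against 1755 ± 245 CPM (SD, n = 4), a level 5.71-fold lower. The log2 fold change was -2.51 (SE 0.26, adjusted p = 3.63e-06), 1.95 below the median of well-expressed genes, and the call held under all alternatives, which gave -2.72 to -1.97.

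At 3 d Abcg1 in macrophages did not pass, with a log2 fold change of -0.74 (SE 0.24, adjusted p = 0.161). Without 3 d replicate 2, whose markers of other cells are given above, it was -1.06 and passed. From 3 d to 14 d it fell by 1.77 (SE 0.26, adjusted p = 0.000136). In monocytes Abcg1 was far lower, with 58.7, 70.1, 143 and 100 CPM in controls, 38.9, 39.6, 71.4 and 47.5 CPM at 3 d and 68.9, 106, 125 and 102 CPM at 14 d. These groups overlapped. The change at 3 d was -0.91 (SE 0.28, adjusted p = 0.0142), a call lost under the 4 rescalings, and at 14 d it was 0.12 (SE 0.28, adjusted p = 0.855). The rise between 3 d and 14 d, 1.03 (SE 0.28, adjusted p = 0.00981), was lost under the 4 rescalings too.

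The difference of Abcg1 between the cell types narrowed accordingly on the joint scale. Macrophages were 3.88 higher than monocytes in controls (SE 0.30, adjusted p = 2.49e-10), 3.87 at 3 d and 0.90 at 14 d (SE 0.29, adjusted p = 0.00992), all as log2 differences. The 14 d value grew to 2.02 with TMM factors from well-expressed genes, and its call was lost without macrophage 14 d replicate 2, at 0.69. The interaction for the 14 d change was -2.98 (SE 0.41, adjusted p = 1.66e-05).

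Abca1, which passes cholesterol and phospholipid to lipid-poor apolipoproteins, moved in the other cell type. In monocytes it had 13.7, 18.6, 14.6 and 11.3 CPM in controls, 5.97, 7.68, 8.87 and 9.27 CPM at 3 d and 45.3, 60.4, 97.0 and 49.1 CPM at 14 d. The 3 groups did not overlap. The 14 d mean of 62.9 ± 23.6 CPM (SD, n = 4) was 4.33-fold above the control mean of 14.5 ± 3.02 CPM (SD, n = 4), with a log2 fold change of 2.11 (SE 0.25, adjusted p = 0.000119). The call held under all alternatives, which gave 2.02 to 2.21, and whichever sample was left out. From 3 d to 14 d Abca1 rose by 2.98 (SE 0.26, adjusted p = 2.09e-05). The decrease at 3 d, -0.87 (SE 0.25, adjusted p = 0.00978), was 0.32 below the median of well-expressed genes and lost its call under the 4 rescalings. At 14 d 4 of the 7 interstitial macrophage markers were also higher in monocytes and 2 were lower, when 3.22% of all genes were higher and 5.34% lower. The part of such cells in the level of Abca1 was not tested.

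In macrophages Abca1 had 62.3, 58.0, 74.6 and 65.5 CPM in controls, 24.0, 87.8 and 14.8 CPM at 3 d and 50.7, 47.0 and 41.6 CPM at 14 d. At 3 d replicate 2 was above every control and the remaining samples were below every control. The log2 fold change was -0.62 (SE 0.52, adjusted p = 0.647) at 3 d, -1.69 and past the threshold without replicate 2, and -0.49 (SE 0.52, adjusted p = 0.429) at 14 d. All 14 d samples lay below all controls on this scale, but the value ranged from -0.69 to 0.07 under the alternatives. The interaction for the 14 d change was -2.95 (SE 0.54, adjusted p = 0.000361), so that the change of Abca1 differed between the cell types by test. Within a library, Abca1 had 0.0373 ± 0.00301 counts per count of Abcg1 in control macrophages (SD, n = 4) and 0.156 ± 0.0327 at 14 d (SD, n = 3), and 0.178 ± 0.0826 in control monocytes and 0.620 ± 0.125 at 14 d (SD, n = 4). In both cell types the 14 d ratios lay above those of all control samples, in macrophages beside a lower Abcg1 and in monocytes beside a higher Abca1.

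**Figure D2:**
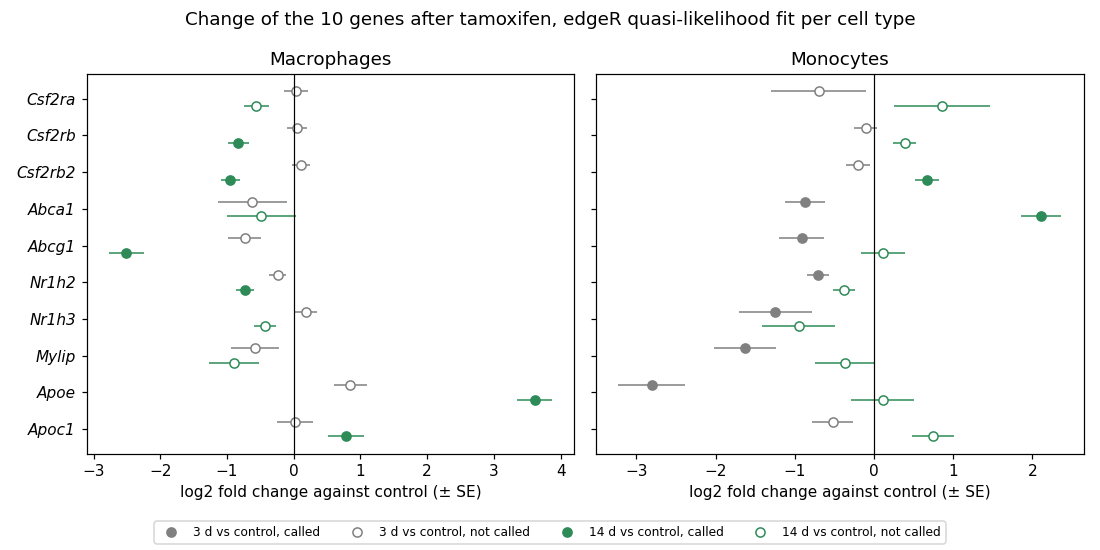
Log2 fold change against control (horizontal axis, lines are the SE) of the 10 genes (vertical axis) at 3 d in grey and 14 d in green, macrophages on the left and monocytes on the right. The SE was worked out from the fold change and the F statistic of the edgeR test. Filled points passed an adjusted p under 0.05 and a fold change above 1.5. At 14 d Apoe was at 3.61 and Abcg1 at -2.51 in macrophages and Abca1 at 2.11 in monocytes, while the smaller decreases of Csf2rb, Csf2rb2 and Nr1h2 in 14 d macrophages lost their calls with library size scaling.

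LXR with its partner binds repeats of AGGTCA with 4 bases between the copies. Promoter windows of 250 bases before to 50 bases after the start of a gene, from RefSeq on GRCm38.p6, were searched on both strands for this repeat with up to 3 mismatches in the 12 defined bases. Windows were found for 7 of the 10 genes, the entries missing being those of Csf2rb, Abcg1 and Apoc1. Only the window of Abca1 held a match, and 21.9% of all 32851 windows held such a match, so the match is a description of the letters alone. Of the 11 further LXR targets 7 had a window, and 2 of these held a match (Srebf1 and Arl4c). Abca1 and Srebf1 are printed because their matches hold the same letters in both copies, while Abca1 changed at 14 d in monocytes and Srebf1 did not pass there (log2 fold change -0.11, adjusted p = 0.716). Capitals mark the match, which reads as the repeat on the opposite strand, and each sequence is the 100 bases on the minus strand of chr4:53159896-53159995 for Abca1 and chr11:60210587-60210686 for Srebf1, outside annotated exons.
Abca1: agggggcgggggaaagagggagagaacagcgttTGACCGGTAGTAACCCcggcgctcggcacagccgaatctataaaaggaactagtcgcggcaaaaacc
Srebf1: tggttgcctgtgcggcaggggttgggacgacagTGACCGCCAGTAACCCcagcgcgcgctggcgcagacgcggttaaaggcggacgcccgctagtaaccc
The match starts 67 bases before the start of Abca1 and 182 bases before 1 of the 3 starts listed for Srebf1, which lies within the gene.

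PU.1 is known to bind around GAGGAAG. This run of 7 letters, on either strand, was in the windows of 3 of the 7 genes (Csf2ra, Csf2rb2 and Nr1h3) and in 13.6% of all windows. The stretch of Csf2rb2 with the match in capitals is shown because this receptor gene moved in both cell types, and it is the minus strand of chr15:78305822-78305921, with the match starting 168 bases before the start. A further match in this window, 28 bases past the start, is outside the stretch.
Csf2rb2: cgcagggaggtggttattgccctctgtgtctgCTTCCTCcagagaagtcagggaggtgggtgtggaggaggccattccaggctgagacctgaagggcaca
Spi1 fell from 617 ± 15.6 CPM in control macrophages (SD, n = 4) to 309 ± 55.5 CPM at 14 d (SD, n = 3), with an adjusted p of 6.83e-05. In this comparison 22.9% of all genes were lower, and well-expressed genes had a median log2 fold change of -0.56. In 14 d monocytes Spi1 did not pass (log2 fold change -0.13, adjusted p = 0.879). A link between Spi1 and Csf2rb2 was not tested.

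Of the 11 further LXR targets, 6 fell and 0 rose in monocytes at 3 d, when 14.4% of all genes were lower and 36.8% higher. The list median was -0.61, near the -0.55 of well-expressed genes. The falls were led by Pltp, a phospholipid transfer protein, at -2.03, Scd1 at -1.12, Lpl at -1.03 and Smpdl3a at -0.83 on the log2 scale. At 14 d only Lpl, the lipoprotein lipase, was called in monocytes, at 1.61, when 3.22% of all genes were higher, while between 3 d and 14 d 7 were higher and 0 lower, when 12% of all genes were higher and 34.5% lower. The list median there was 0.92, against 0.46 over well-expressed genes. In macrophages at 3 d Scd1 and Arl4c rose by 1.13 and 1.12, when 1.05% of all genes were higher. At 14 d, of the 10 targets tested in macrophages, 3 rose and 5 fell, when 39.4% of all genes were higher and 22.9% lower, with Arl4c at 2.45, Apoc4 at 2.42, Mertk at -1.66 and Scd1 at 1.15. The list median was -0.53 in 14 d macrophages, near the -0.56 of well-expressed genes.

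Of 9 genes that store, free or modify cholesterol, 6 fell and 1 rose in 14 d macrophages, when 22.9% of all genes were lower and 39.4% higher. The list median was -0.85, against -0.56 over well-expressed genes. Nceh1, a cholesteryl ester hydrolase, fell by 2.08 on the log2 scale, from 714 to 169 CPM, and Ch25h and Npc1 fell by 1.36 and 1.22. Cyp7b1, an oxysterol hydroxylase, rose by 4.02, from 0.09 to 1.58 CPM. None of the 9 was called by edgeR at 3 d in macrophages, when 1.27% of all genes were. In monocytes at 3 d 6 fell and 0 rose, led by Cyp27a1 at -1.26 and Lipa at -1.10, when 14.4% of all genes were lower and 36.8% higher. The list median was -0.72, against -0.55 over well-expressed genes. At 14 d Npc1, which exports cholesterol from lysosomes, rose by 1.26 while Scarb1 fell by 0.61, when 3.22% of all genes were higher and 5.34% lower.

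Of 8 surfactant and lipid uptake genes, 6 fell in 14 d macrophages and 0 rose, led by the fatty acid receptor Cd36 at -2.29, the lysosomal phospholipase Pla2g15 at -2.15, the lipid droplet protein Plin2 at -1.46 and Lrp1 at -1.24. Of all genes 22.9% were lower and 39.4% higher, and the list median was -1.07, against -0.56 over well-expressed genes. In 3 d monocytes 5 fell, among them Fabp4 at -2.29, Marco at -2.27 and Cd36 at -2.09, and Fabp5 rose by 1.44, when 14.4% of all genes were lower and 36.8% higher. The list median was -1.04, against -0.55 over well-expressed genes. In 14 d monocytes only Fabp5 was called, at 2.78, when 3.22% of all genes were higher. At 3 d in macrophages only Pla2g15 was called, at -0.84, when 0.224% of all genes were lower.

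Mylip had 43.1, 35.2, 43.7 and 39.7 CPM in control macrophages, 20.2, 44.5 and 16.2 CPM at 3 d and 26.2, 28.0 and 10.3 CPM at 14 d. In monocytes it had 12.4, 21.1, 25.8 and 26.7 CPM in controls, 7.80, 12.6, 3.76 and 3.72 CPM at 3 d and 11.04, 12.9, 22.9 and 20.0 CPM at 14 d. As for Abca1, replicate 2 was the high sample of the 3 d macrophages, while in 3 d monocytes 1 sample reached into the range of the controls. Mylip fell in 3 d monocytes by 1.62 on the log2 scale (SE 0.39, adjusted p = 0.00421), 1.07 below the median of well-expressed genes, and the call held under all alternatives. In 14 d macrophages the log2 fold change of -0.90 (SE 0.38, adjusted p = 0.0521) did not pass, though all 14 d samples were below all controls. It was called under 5 of 10 alternatives, those with DESeq2, without a filter on low counts, with the replicate block, with a dispersion that was not robust and with only the groups compared. In monocytes the rise from 3 d to 14 d was 1.26 (SE 0.39, adjusted p = 0.0168), a call lost under the 4 rescalings and without 3 d replicate 3 or 14 d replicate 3.

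Vldlr and Lrp8, which encode receptors that MYLIP sends to degradation, were measured only as RNA. Vldlr rose by 3.31 on the log2 scale in 3 d monocytes, from 0.48 to 4.69 CPM, and by 3.13 in 14 d macrophages, from 0.64 to 5.72 CPM. Lrp8 rose by 2.96 in 3 d monocytes, by 1.47 in 14 d monocytes and by 0.79 in 14 d macrophages. The shares of all genes higher in these comparisons were 36.8%, 3.22% and 39.4%. Of the 3 genes of this list 1 was lower in each of these comparisons, when 14.4%, 5.34% and 22.9% of all genes were, so these rises do not speak for the list. The groups in which Vldlr was higher, from levels below 1 CPM, were also those with more genes detected and a larger non-coding share.

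Apoe, the main cholesterol acceptor that macrophages secrete, had the widest range of the 10 genes. Monocytes had 2360, 5376, 7209 and 3729 CPM in controls, 486, 937, 701 and 545 CPM at 3 d and 2496, 4583, 9027 and 4066 CPM at 14 d. Every 3 d sample was below every other monocyte sample, while control and 14 d samples overlapped. Apoe fell at 3 d by 2.81 on the log2 scale (SE 0.42, adjusted p = 0.000671), and rose by 2.92 from 3 d to 14 d (SE 0.42, adjusted p = 0.000862). Both calls held under all alternatives and whichever sample was left out. At 14 d against control the log2 fold change was 0.11 (SE 0.39, adjusted p = 0.905).

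In macrophages Apoe had 50.7, 57.2, 79.6 and 46.9 CPM in controls, 117, 121 and 78.4 CPM at 3 d and 772, 443 and 933 CPM at 14 d. The 14 d samples stood above all others. The mean of 716 ± 250 CPM (SD, n = 3) was 12.2-fold above the 58.6 ± 14.7 CPM of controls (SD, n = 4), with a log2 fold change of 3.61 (SE 0.26, adjusted p = 5.87e-07). Under the alternatives it was 3.41 to 4.20. At 3 d it was 0.85 (SE 0.25, adjusted p = 0.119), which DESeq2 but not edgeR called. The rise at 14 d came in samples in which the sums of interstitial macrophage, monocyte, neutrophil, eosinophil and dendritic cell markers were higher too. Monocyte markers summed to 155 to 295 CPM in these samples and to 7069 to 9890 CPM in 14 d monocytes. On the joint scale monocytes of the same day held Apoe at 5858 ± 3222 CPM (SD, n = 4) against 514 ± 193 CPM (SD, n = 3) in macrophages. The part of other cells in the level of Apoe was not tested.

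The change of Apoe differed between the cell types on both days, with a fall in monocytes at 3 d and a rise in macrophages at 14 d. The interaction was 3.47 (SE 0.56, adjusted p = 0.000936) at 3 d and 3.17 (SE 0.55, adjusted p = 0.000319) at 14 d, and both calls held under all alternatives. On the joint scale macrophages were below monocytes by log2 differences of -6.68 in controls (SE 0.48, adjusted p = 7.28e-10), -3.21 at 3 d and -3.51 at 14 d.

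Apoc1 lies beside Apoe on chromosome 7 and was measured at a far lower level. Macrophages had 6.16, 5.17, 5.96 and 6.44 CPM in controls, 4.23, 7.06 and 6.88 CPM at 3 d and 13.5, 10.3 and 6.76 CPM at 14 d, from 40 to 97 counts a library. Its log2 fold change at 14 d was 0.79 (SE 0.27, adjusted p = 0.0164), and it lost its call without 14 d replicate 1 (0.49) or without a filter on low counts. The rise from 3 d, 0.76 (SE 0.29, adjusted p = 0.0325), was lost without a filter on low counts, with the replicate block and in 5 of 6 fits with 1 sample left out. Monocytes had 14.2, 15.1, 15.6 and 7.45 CPM in controls, 6.22, 12.4, 10.2 and 7.62 CPM at 3 d and 24.4, 23.8, 23.1 and 16.6 CPM at 14 d. All 14 d samples were above all control and 3 d samples, and the rise from 3 d, 1.27 (SE 0.27, adjusted p = 0.00285), was called under all alternatives, while that from control, 0.75 (SE 0.26, adjusted p = 0.100), passed only with the replicate block. Apoe had 372 ± 150 counts per count of Apoc1 in control monocytes and 73.6 ± 4.09 at 3 d (SD, n = 4), so all 3 d ratios (69.0 to 78.2) lay below all control ratios (166 to 501).

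Between the cell types, whose counts were deposited separately, 6 of the 10 genes were called in controls, when 44.2% of 26692 genes were. A difference in processing cannot be told apart from cell type in these comparisons. Csf2rb2, Abca1, Abcg1 and Nr1h3 were higher in macrophages, as 24.5% of all genes were, and Apoe and Apoc1 were lower, as 19.7% were. At 3 d 7 were called when 63.1% of all genes were, 5 higher (20.4% of all genes) and 2 lower (42.7%), with Mylip joining the higher genes. At 14 d 8 were called when 63.7% of all genes were, 2 higher (40.4% of all genes) and 6 lower (23.3%). The calls in controls and at 3 d held under every scaling run, but that of Apoc1 at 3 d was lost without macrophage 3 d replicate 1 or 3. Of the 8 calls at 14 d 4 did, those of Abcg1, Nr1h3, Apoe and Apoc1, while those of Csf2rb and Nr1h2 were lost under the rescalings other than upper quartile and those of Csf2ra and Abca1 under all 4. The sign of Nr1h2 turned (0.01) with library size scaling. The replicate block also ended the call of Csf2ra, and DESeq2 or the absence of a filter that of Abca1. Both ended without macrophage replicate 3 or monocyte replicate 3 or 4, and that of Csf2ra also without macrophage replicate 1 or 2.

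Ordered by mean joint CPM over the 6 groups, Abcg1 ran from control macrophages (1538 ± 264, SD, n = 4) over 3 d macrophages (903 ± 355, SD, n = 3) and 14 d macrophages (218 ± 49.3, SD, n = 3) to 14 d, control and 3 d monocytes (117, 105 and 61.9). Neighbours among the 3 monocyte groups overlapped, as did control and 3 d macrophages, and 14 d macrophages stood apart on both sides. Apoe ran from 14 d and control monocytes (5858 ± 3222 and 5260 ± 2325, SD, n = 4), which overlapped, to 3 d monocytes (838) and 14 d macrophages (514), which overlapped as well, and ended with 3 d and control macrophages (90.6 and 51.3). The order of 3 d monocytes and 14 d macrophages turned when counts were divided by library totals alone. Abca1 ran from 14 d monocytes (73.2 ± 27.0, SD, n = 4) through the 3 macrophage groups (57.0, 36.0 and 33.0), neighbours that overlapped, to control (16.4) and 3 d monocytes (9.99), which stood apart. This order depends on the scaling. With counts divided by library totals alone, the mean of Abca1 was slightly higher in control macrophages than in 14 d monocytes. Csf2ra had no pair of neighbouring groups that stood apart, and its means ran from 421 in 14 d monocytes to 155 in 3 d monocytes.

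Genes most like these in pattern were sought within each cell type by Pearson's r of log2 CPM over its samples, among 9640 genes in macrophages and 8071 in monocytes. The samples share groups, so a high r describes a shared order of groups and no p is given. For Abcg1 over the 10 macrophage samples the closest genes were Nceh1 (r = 0.997), Flvcr2 (0.996) and Pld2 (0.996), and for Apoe they were Tspan3 (0.984), Gm28438 (0.979) and Slc44a1 (0.979). For Abca1 over the 12 monocyte samples they were Ms4a7 (0.988), Eif2b3 (0.982) and Renbp (0.965), and for Apoe Cyb5a (0.980), D8Ertd738e (0.979) and Snrnp40 (0.970). For Csf2ra in monocytes, where levels varied within groups, Dnajc3 (0.992), Eif5 (0.988) and Ndfip1 (0.986) varied with it. The other 9 of 24 were Creg2, Pid1 and F11r for Csf2ra and Vgll4, Btg2 and Gm15886 for Abca1 in macrophages, and Cd9, Tubb4b and Polr3d for Abcg1 in monocytes, with r from 0.937 to 0.969.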

How the data were processed

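The authors deposited gene counts for 10 macrophage and 12 monocyte samples, made before deposit from paired-end reads of oligo(dT)-selected mRNA. Their notes name STAR (2.7.2c, 2.7.3a), featureCounts (1.6.3) and DESeq2 (1.26.0, 1.28.1) on GRCm38, without saying which table each version served. Gene symbols, lengths and positions came from GENCODE, which held 31059 of the 31134 macrophage and 55240 of the 55421 monocyte identifiers. Promoters came from RefSeq. Depth is given in the report.

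The counts were modelled by edgeR 4.0.16, running on limma 3.58.1 and R 4.3.3, after filterByExpr, by TMM factors and robust quasi-likelihood dispersion. A prior count of 2 was used for log2 CPM and not for log2 fold changes. Each SE is the absolute log2 fold change divided by the square root of the F statistic of its test. There were 11 comparisons: 3 within each cell type, 3 between cell types and 2 differences in change, the last 5 on all 22 samples and the genes in both tables. Genes were called at an adjusted p under 0.05 and a fold change above 1.5. Alternatives were other scalings, DESeq2 1.42.0, other filters, only the groups compared, a replicate block, dispersion not robust, adjusted p alone, and each sample left out.

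From each further list, at most 4 called genes with the largest change were named in a comparison. Members and lists were chosen with earlier results of these data known. The scripts were tested on simulated data. Same-numbered control macrophages and control monocytes deviated together (r 0.142 to 0.238 over 4 pairs), a pairing that comes from the data and not from the labels. A fit with the number as a block changed no call of the 10 genes there.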

Additional observations from a re-analysis of the deposited data

Results flagged for a closer look

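Apoc1 had a sample far below the rest of its group in control monocytes (7.45 CPM against 14.2 CPM in the nearest sample, a gap of 0.834 of the range) and in 14 d monocytes (16.6 against 23.1 CPM, a gap of 0.833). Of 40 groups checked, these 2 passed the limit of Dixon's test for 4 samples, when about 5% would by chance.

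The change differed between macrophages and monocytes at 3 d for Apoe (3.47 on the log2 scale). At 14 d it differed for Csf2rb (-1.57), Csf2rb2 (-1.97), Abca1 (-2.95), Abcg1 (-2.98), Nr1h2 (-0.70) and Apoe (3.17). The sex of the 14 d samples differed from that of the controls in both cell types, and its part was not tested.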

How the results depend on the processing

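Of 1100 values of the 10 genes under the alternatives, 978 stayed on the same side of the thresholds, 85 lost a call, 31 gained a call and 6 turned sign with a call on either side. With 1 sample left out, 914 of 960 stayed, 27 lost a call and 19 gained a call. Calls lost under other scalings included decreases in both cell types and, in monocytes, rises of Csf2rb2, Abcg1 and Mylip. The cause was not tested.

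In 3 d against control monocytes 6 genes were called, but 2 with library size, upper quartile or well-expressed TMM scaling and 2 with the filter at a mean log2 CPM above 1. That filter took all genes called from 11438 to 1467, when library size scaling still called 9743 higher and 499 lower, so the counts under these scalings cannot be compared directly. In 14 d against 3 d monocytes 6 became 3 under each of these. In 14 d against control macrophages 6 became 3 with library size scaling, the higher filter and well-expressed TMM. In 14 d against 3 d macrophages 7 became 3 with well-expressed TMM and 4 with each of the other rescalings. Between the cell types at 14 d, 8 became 5 with library size, the higher filter and well-expressed TMM, 4 of the 8 and Csf2rb2, called higher in macrophages.

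In 14 d against control monocytes 2 became 1 with upper quartile scaling or without a filter on counts, and 4 with the replicate block, which added Nr1h3 and Apoc1. The block gave 2 for the difference at 3 d (Nr1h3 added). Control and 14 d monocytes with the same number correlated at 0.0892 to 0.521, 3 of 4 best with their own number, and control macrophages with 14 d monocytes at 0.100 to 0.186, again 3 of 4, hints from the data alone. DESeq2 called 1 in 3 d macrophages.

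The sign turned for Csf2rb2 between cell types at 14 d (1.02 with library size, 0.59 with the higher filter, 1.05 with well-expressed TMM), for Nr1h2 in the same comparison (0.0112 and 0.0356, first and last) and for Nr1h2 in the difference at 14 d (0.0923, well-expressed TMM).

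Leaving out each sample gave 5 to 6 genes in monocytes at 3 d, 1 to 2 at 14 d and 5 to 7 from 3 d to 14 d. In macrophages it gave 0 to 3, 5 to 7 and 5 to 8. Between cell types it gave 6 to 6, 7 to 8 and 6 to 8, and for the differences 1 to 1 and 5 to 7. In 3 d macrophages 267 genes of all were called, 763 with DESeq2, 133 with the block and 77 to 1476 with a sample left out. In 14 d against control monocytes 1914 genes of all became 1158 without monocyte 14 d replicate 3. For the difference at 3 d, 4995 became 3136 and 3033 without macrophage control replicate 1 or 2. It became 2474 and 2272 without macrophage 3 d replicate 1 or 3.

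Limits are 3 or 4 samples a group, sex differing with time at 14 d, controls defined in more than 1 way, markers of other cell types in the sorted samples, reads that could be split between Csf2rb and Csf2rb2, and RNA only, without protein or cholesterol measured. Separately deposited counts are a further limit of direct comparisons between the cell types.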
